A study of Homo sapiens with 4 samples.

Results

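Minor hairpin arms, the less abundant arms of miRNA hairpins, were followed in RNA pull-down libraries of HGC27 and AGS cells, which are established human gastric cancer lines. Members were chosen by their counts: a member was the arm with fewer counts summed over the 4 libraries wherever both the 5p and the 3p arm of a miRNA numbered under 1000 were in the count table. The low number stood in for conservation, which was not measured. Of 843 distinct names in the table, 354 were known miRNAs under that number, and they held 87 stems with both arms. After 13 stems that had been set aside by name were left out, 74 minor arms remained, 42 of them 3p arms and 32 of them 5p arms. That a member had fewer counts than its partner over the summed libraries is the rule itself and is no finding. All cells of both lines carried a stably overexpressed 3′-UTR of FN1, the fibronectin gene, delivered by lentivirus. In vitro transcribed, biotinylated RNA probes to the FN1 3′-UTR were held on streptavidin beads and mixed with cell lysate, and the small RNA recovered from the beads was sequenced. Each line gave 1 library with the positive and 1 library with the negative probe, so each group is 1 library with no replicate. The study's methods describe antisense RNA on the beads, and neither they nor the labels say whether that was the positive or the negative probe, so no value below is tied to a strand of the FN1 3′-UTR. The infected cells were selected with puromycin, and no cloning step is described.

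A miRNA hairpin is cut by Dicer into a duplex of a 5p and a 3p strand, and as a rule an Argonaute protein keeps one of them as the guide while the other, the passenger, is discarded and degraded. The strand whose 5′ end is less tightly paired is favoured as the guide, and a 5′ uridine or adenosine fits the pocket of Argonaute best. Which arm dominates can differ between tissues, and for some hairpins both arms are known to repress targets. The arm ratio, minor arm counts over major arm counts in the same library, does not depend on how libraries are scaled to each other. Where each arm has 1 locus, it compares strands that come from the same precursor. This does not hold for every stem. The sequence of miR-181a-5p has 2 loci and that of miR-181a-3p has 1, and miR-365a-3p has the same sequence as miR-365b-3p.

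The sequences of 8 stems are shown because the comparisons below turn on them. They are the 5 stems whose arm ratio differed between the probes in both lines, the miR-200a and miR-200b stems, and miR-574. Each mature sequence is given 5′ to 3′ from RefSeq with the seed, bases 2 to 8, in capitals, and the minor arm stands first in each pair.
miR-99b-3p: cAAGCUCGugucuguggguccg
miR-99b-5p: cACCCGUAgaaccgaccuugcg
miR-106b-3p: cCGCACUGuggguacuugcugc
miR-106b-5p: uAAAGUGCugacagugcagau
miR-30e-5p: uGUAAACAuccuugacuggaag
miR-30e-3p: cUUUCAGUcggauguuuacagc
miR-130b-3p: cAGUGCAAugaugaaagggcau
miR-130b-5p: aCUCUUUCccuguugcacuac
miR-339-3p: uGAGCGCCucgacgacagagccg
miR-339-5p: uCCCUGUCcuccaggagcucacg
miR-200a-5p: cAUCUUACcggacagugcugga
miR-200a-3p: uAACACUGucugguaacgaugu
miR-200b-5p: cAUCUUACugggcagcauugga
miR-200b-3p: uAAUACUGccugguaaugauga
miR-574-3p: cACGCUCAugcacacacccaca
miR-574-5p: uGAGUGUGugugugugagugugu
The minor arms of miR-200a and miR-200b share their seed, and their major arms have different seeds. On GRCh38.p14, miR-99b-3p lies at chr19:51692656-51692677 on the plus strand and miR-574-3p at chr4:38868092-38868113 on the plus strand, in introns of SPACA6 and FAM114A1. miR-106b-3p lies at chr7:100094002-100094023 on the minus strand, within an intron of MCM7, which codes for a subunit of the replicative helicase. miR-30e-5p is at chr1:40754371-40754392 on the plus strand, within an intron of NFYC, a subunit of the CCAAT-binding factor NF-Y. miR-130b-3p is at chr22:21653354-21653375 on the plus strand in an exon of the noncoding transcript AP000553.1, and miR-339-3p at chr7:1022955-1022977 on the minus strand, within an intron of C7orf50. miR-200b-5p at chr1:1167124-1167145 and miR-200a-5p at chr1:1167878-1167899 are close neighbours on the plus strand, with no host gene annotated there on that strand.

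Minor arms were a small share of the counts of their stems. Over all libraries the 74 minor arms held 12222 counts against 1988282 for their partners, or 0.611%, and the median ratio of a stem was 0.0494. The library totals over all miRNAs were 1452832 and 1296853 counts for the negative and positive probe in HGC27 and 2955078 and 1527390 in AGS. The pooled share of minor arms was 0.370% (Wilson 95% interval 0.358 to 0.383) with the negative and 0.825% (0.802 to 0.849) with the positive probe in HGC27. In AGS it was 0.631% (0.603 to 0.659) and 1.07% (1.02 to 1.11). These intervals cover counting error only. The share was higher with the positive probe in both lines, an order that in AGS rested on miR-99b. Without that stem the shares were 0.303% (0.291 to 0.315) and 0.445% (0.428 to 0.462) in HGC27, still higher with the positive probe, and 0.673% (0.637 to 0.710) and 0.550% (0.518 to 0.585) in AGS, where the order turned. The stems with the most counts, miR-148a in 3 libraries and miR-125a in the positive probe library of AGS, set the level. Without both of them in every library the shares were 1.60% and 3.54% in HGC27 and 1.21% and 2.41% in AGS. Without miR-99b, miR-148a and miR-125a they were 2.21% and 1.79% in HGC27 and 3.30% and 1.30% in AGS, lower with the positive probe in both lines. The pooled share therefore gives no direction for minor arms as a class. These sets were chosen after the data were seen.

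Few minor arms were read deeply. In total, 30 members had under 10 counts over the 4 libraries and 12 had at least 100. In HGC27 56 and 53 members were listed with the negative and positive probe, and in AGS 32 and 30. Of the 74 members, 18 were listed in every library, 22 in a single library, 32 in HGC27 alone and 8 in AGS alone. With either probe, more names of the whole table were also listed in HGC27 than in AGS. The overlap of the libraries was not taken over all names, so 32 against 8 cannot be read as a trait of minor arms. Among stems with at least 20 counts of both arms together, the median share of the minor arm was 2.42% over 58 stems and 2.75% over 54 stems in HGC27, for the negative and positive probe. In AGS it was 0.560% over 47 stems and 0.00110% over 40 stems. The minor arm was blank in 10 and 8 of those stems in HGC27 and in 21 and 20 of those in AGS, so the AGS medians sit at the edge of detection. The lowest count in the table was 2, and a blank could be 0 or 1.

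**Figure D1:**
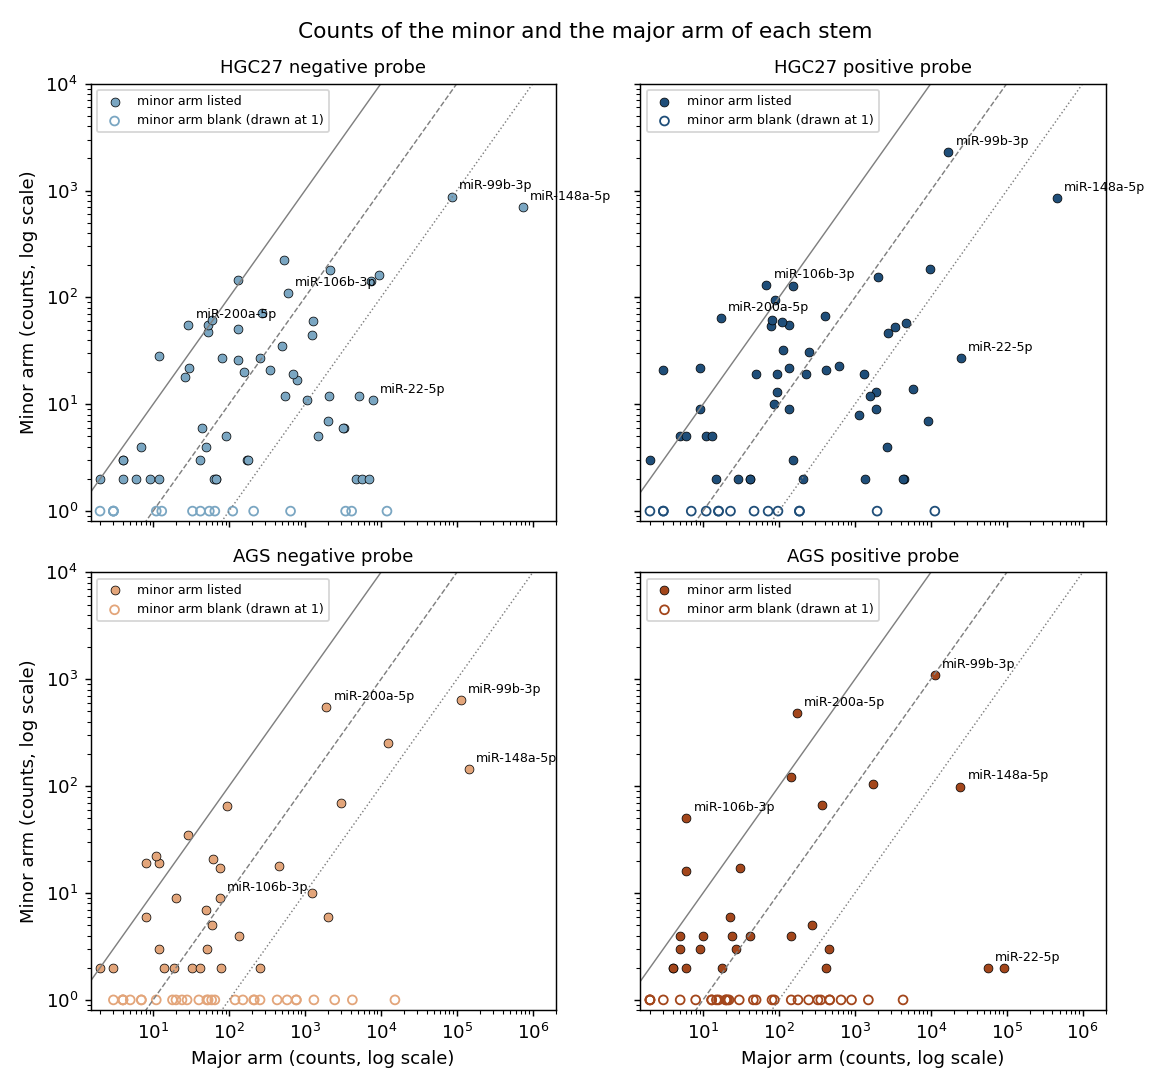
Minor arm counts against major arm counts of each stem, 1 panel per library, both axes logarithmic, with lines at ratios of 1, 0.1 and 0.01 and blank minor arms drawn at the foot of each panel. Stems whose major arm was blank are not drawn, 1 with the negative and 3 with the positive probe in AGS, and miR-99b-3p and miR-148a-5p are the highest points of the minor arm in HGC27.

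The 10 members with the most counts were led by miR-99b-3p, which held 878 counts with the negative and 2279 with the positive probe in HGC27, and 640 and 1095 counts in AGS. It made up 25.9%, 47.9%, 32.8% and 51.5% of all minor arm counts in these libraries. Its partner miR-99b-5p, of the miR-99/100 family that is known for repressing MTOR, had 85332, 16992, 113717 and 11201 counts. Next came miR-148a-5p with 703, 843, 144 and 99 counts against 734628, 453909, 144027 and 24595 for miR-148a-3p, a regulator of DNMT1. miR-200a-5p followed with 1146 counts over the libraries, then miR-27b-5p with 440, miR-339-3p with 425, miR-200b-5p, miR-340-3p with 322, miR-181a-3p with 307, miR-106b-3p and miR-9-3p with 239. Among members with at least 10 counts, the lowest ratios were those of miR-22, miR-143 and miR-93. miR-22-5p had 40 counts against 93520 for miR-22-3p, and miR-143-5p and miR-93-3p had 14 and 10 counts against 11332 and 7626. Closest to the boundary between minor and major arm were miR-27a-3p with 157 counts against 184 for miR-27a-5p, miR-139-3p with 90 counts and a ratio of 0.849, and miR-181a-3p with 307 against 388. miR-27a-3p differs by 1 base from miR-27b-3p, which had 20206 counts. How reads were assigned between these 3p arms is not given, so the arm order of miR-27a may depend on it. The highest number inside the limit of 1000 was miR-877, and 10 stems with both arms numbered 1000 and up fell outside. For miR-27a, miR-130b, miR-132, miR-145 and miR-195 the arm with fewer counts in these libraries is the arm that is widely described as the guide.

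The comparison of the positive with the negative probe asks which arm of a stem was recovered more with each RNA. In HGC27 the change of the arm ratio was called in 23 of 54 stems with at least 20 counts of both arms in both libraries, or 42.6%, with 14 minor arms relatively higher and 9 relatively lower. A call needed a change of at least 2-fold whose 95% counting interval did not include 0 on the log2 scale. The background was all stems with both arms, whatever their number, with these members and stems set aside by name among them. Of that background 50.7% were called in that comparison, so minor arms of the low-numbered miRNAs did not stand out by a higher share. In AGS 15 of 38 stems were called, or 39.5%, with 9 higher and 6 lower, against 39.2% of all stems. In 7 of the 54 stems in HGC27 and 18 of the 38 in AGS, blank minor arms left no fold or no informative bound. These calls compare single libraries and cannot be read as a test of the probes, since the spread between repeated pull-downs was not measured.

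For 18 stems a change or an informative bound was available in both lines, and in 14 of them it had the same sign in both. In 5 stems the change was called in both lines, each time in the same direction, which is 21.7% of the calls in HGC27 and 33.3% of those in AGS. The minor arm was relatively higher with the positive probe for miR-99b-3p and miR-106b-3p, and relatively lower for miR-30e-5p, miR-130b-3p and miR-339-3p. For 13 of the 18 stems every arm had counts in every library. The changes of the lines differed by more than counting error in 10 of these, and 8 of the 10 had the same sign in both. Outside the members, let-7d, miR-28, miR-378a and miR-423 were also called in both lines, each in the same direction. Such calls are therefore not particular to the members.

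miR-99b-3p was 1.02% of its stem with the negative and 11.8% with the positive probe in HGC27, and 0.560% and 8.91% in AGS. The log2 change of its arm ratio was 3.70 (95% counting interval 3.59 to 3.82) in HGC27 and 4.12 (3.98 to 4.26) in AGS. The deposited score is scaled within each library, by a divisor whose basis is not known. On that score miR-99b-3p was higher by 1.45 and 1.51 on the log2 scale with the positive probe in HGC27 and AGS. Its partner miR-99b-5p was lower, at -2.26 and -2.59. As the counts above show, the major arm remained the larger one in every library.

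miR-106b-3p, the passenger of an arm of the miR-17 seed family that is known for repressing CDKN1A, was the larger arm of its stem with the positive probe. It had 109 counts against 592 of miR-106b-5p with the negative and 131 against 68 with the positive probe in HGC27, and 9 against 75 and 50 against 6 in AGS. Its share was thus 15.5% and 65.8% in HGC27 and 10.7% and 89.3% in AGS, log2 changes of 3.39 (2.87 to 3.90) and 6.12 (4.54 to 7.69). In both lines the score of miR-106b-5p was lower with the positive probe, at -2.98 and -2.46 on the log2 scale, and that of miR-106b-3p was higher, at 0.34 and 2.70.

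miR-30e-5p carries the seed common to the miR-30 family, which is known for repressing SNAI1, yet it was the minor arm here. Its counts were 51 against 130 of miR-30e-3p with the negative and 21 against 419 with the positive probe in HGC27, and 19 against 8 and 4 against 144 in AGS. The share was 28.2% and 4.77% in HGC27 and 70.4% and 2.70% in AGS, so the arm was ahead of its partner in the negative probe library of AGS and far behind in the positive. The log2 change was -2.97 (-3.75 to -2.18) in HGC27 and -6.42 (-8.28 to -4.55) in AGS. Each arm of miR-30e differs by 1 base from the same arm of miR-30a, and how reads were assigned between such neighbours is not given in the sources used here. The miR-30a stem is the other way round, with miR-30a-3p as the minor arm, and in HGC27 that arm had 26 counts against 130 with the negative and 54 against 78 with the positive probe, a log2 change of 1.79 (1.00 to 2.58). Read by side, the 3p arm was thus relatively higher with the positive probe in HGC27 in both stems.

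miR-130b-3p, which shares its seed with miR-454-3p, had 19 counts with the negative and 2 with the positive probe in HGC27, against 697 and 1347 of miR-130b-5p. In AGS it had 5 counts against 60 and was blank against 326. The log2 change was -4.20 (-6.30 to -2.09) in HGC27 and at most -3.18 in AGS, where the blank was set to the limit of 3 counts. miR-339-3p was read more deeply, with 226 counts against 522 of miR-339-5p and 67 against 399 in HGC27, and 65 against 95 and 67 against 370 in AGS. Its share was 30.2% and 14.4% in HGC27 and 40.6% and 15.3% in AGS, with log2 changes of -1.37 (-1.80 to -0.93) and -1.92 (-2.51 to -1.33). In no library was the minor arm of miR-130b or miR-339 ahead of its partner.

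**Figure D2:**
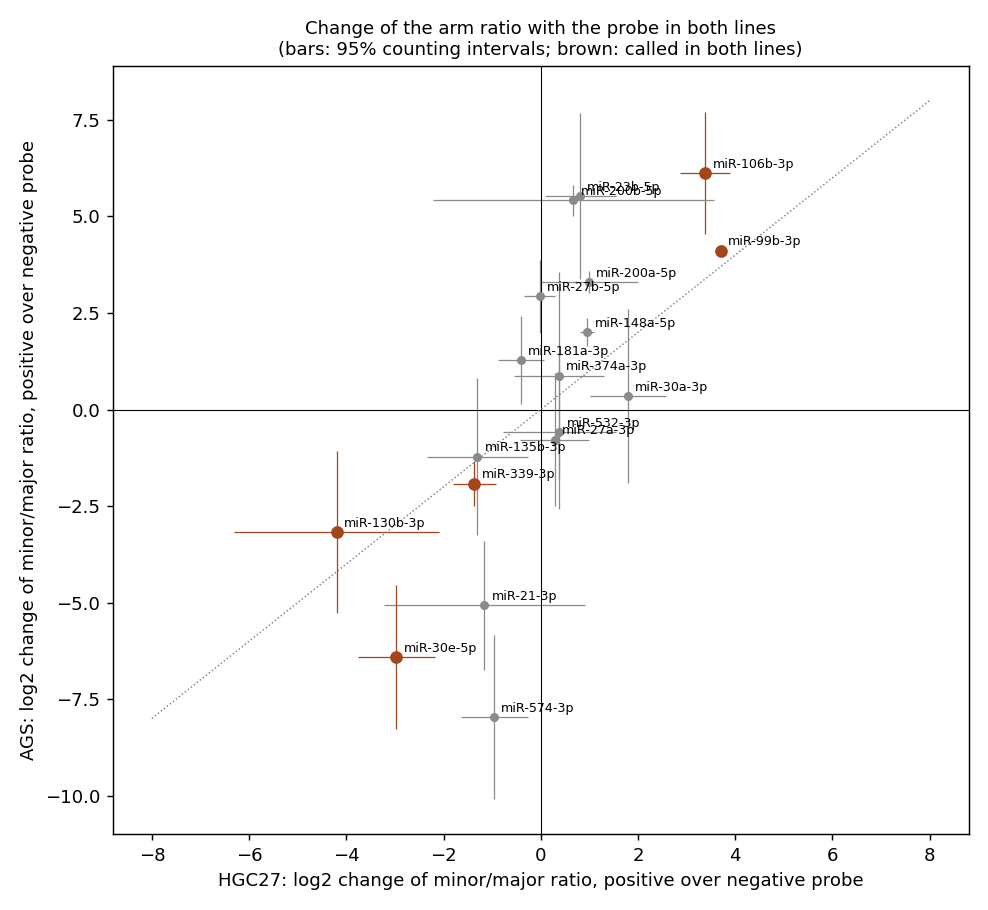
Log2 change of the minor to major arm ratio with the positive against the negative probe, HGC27 on the horizontal and AGS on the vertical axis, with 95% counting intervals as bars, for the 18 stems with a change or an informative bound in both lines. Stems with a blank minor arm are drawn at the bound that 3 counts give, 14 of the stems lie in the quadrants of like sign, and miR-106b-3p (3.39 and 6.12) and miR-30e-5p (-2.97 and -6.42) lie far apart from each other.

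Other stems were called in a single line, which for most of those called in HGC27 does not make the change particular to that line. Among them only miR-30a and miR-135b had a change or an informative bound in AGS, and neither was called there. The rest were under the count minimum in AGS or left no informative fold. In HGC27 the largest changes were at least 6.61 for miR-365a-5p, 5.20 (3.16 to 7.23) for miR-92b-5p, 4.93 (3.09 to 6.78) for miR-425-3p and 4.35 (2.11 to 6.59) for miR-93-3p. miR-92b-5p had 2 counts with the negative and 53 with the positive probe against 4708 and 3404 of miR-92b-3p, of the miR-25/92 seed family. miR-425-3p had 4 and 22 counts against 50 and 9 of miR-425-5p, and miR-93-3p had 2 and 8 against 5695 and 1117. These folds rest on few counts with the negative probe. miR-365a-5p had no count with the negative and 21 with the positive probe, against 42 and 3 of miR-365a-3p, whose sequence is the same as that of miR-365b-3p, so its reads belong to both stems. The minor arms with the most counts among those called in HGC27 alone were miR-340-3p and miR-9-3p. miR-340-3p was 1.69% and 7.22% of its stem with the negative and positive probe, against 9486 and 1991 counts of miR-340-5p, a log2 change of 2.18 (1.85 to 2.50). miR-9-3p, an arm of a neuronal miRNA whose targets include REST and its cofactor RCOR1, was 7.90% and 1.23% of its stem, against 2111 and 4669 counts of miR-9-5p, a log2 change of -2.79 (-3.22 to -2.35). The other minor arms called in HGC27 were miR-15b-3p, miR-18a-3p, miR-148b-5p, miR-182-3p, miR-204-3p and miR-374b-3p, which were relatively higher with the positive probe, and miR-135b-3p, miR-143-5p, miR-181b-3p, miR-193b-5p and miR-195-5p, which were relatively lower. Of these, miR-204-3p had 2 counts with the negative and 55 with the positive probe, a log2 change of 3.67 (1.59 to 5.75), and miR-18a-3p had 3 against 170 and 32 against 113, a change of 4.00 (2.26 to 5.75).

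In AGS the largest changes in absolute size were those of miR-574, miR-30e, miR-335, miR-106b and miR-23b. miR-574-3p had 35 counts against 29 of miR-574-5p with the negative and 2 against 415 with the positive probe, a log2 change of -7.97 (-10.1 to -5.84). In HGC27 the same stem had 61 counts against 59 and 59 against 111, so the arms were near parity with the negative probe in both lines and apart with the positive probe in AGS. miR-335-5p, from an intron of the imprinted gene MEST, had 21 counts against 62 with the negative and none against 657 with the positive probe in AGS, a log2 change of at most -6.21. In HGC27 this stem was hardly listed, with 2 and 3 counts of the major arm. miR-23b-5p had 3 counts against 52 and 16 against 6 in AGS, a log2 change of 5.53 (3.37 to 7.69), while in HGC27 it had 35 against 499 and 31 against 252, with no call. miR-27b-5p, from the same cluster on chromosome 9 in an intron of C9orf3, had 10 counts against 1252 and 104 against 1710 in AGS, a log2 change of 2.93 (1.99 to 3.87). In HGC27 its change was -0.02 (-0.34 to 0.30), with shares of 1.87% and 1.84%. miR-148a-5p had a log2 change of 2.01 (1.64 to 2.38) in AGS and of 0.96 (0.81 to 1.10) in HGC27, the latter below the 2-fold threshold. The other calls in AGS were miR-31-3p and miR-181a-3p, relatively higher with the positive probe, and miR-21-3p, relatively lower.

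The miR-200 family is the main epithelial miRNA family, whose 3p arms repress ZEB1 and ZEB2. Of its 5 stems, miR-141, miR-200a and miR-200b had a member here, all 5p arms. miR-200a-5p had 548 counts against 1916 of miR-200a-3p with the negative and 479 against 171 with the positive probe in AGS, so that its share was 22.2% (20.6 to 23.9) and 73.7% (70.2 to 76.9). miR-200b-5p had 252 counts against 12532 of miR-200b-3p with the negative and 122 with the positive probe, a share of 1.97% (1.74 to 2.23) and 46.2% (40.3 to 52.2). The log2 changes in AGS were 3.29 (3.01 to 3.58) and 5.42 (5.02 to 5.81). In both stems the major arm moved more: the score of miR-200b-3p was lower with the positive probe, at -5.68 on the log2 scale, and that of miR-200a-3p at -2.71, while the minor arms were at -0.26 and 0.55. In HGC27 these stems were scarce, with 55 against 29 and 64 against 17 counts for miR-200a and 2 against 67 and 2 against 42 for miR-200b. There miR-200a-5p was the larger arm with either probe, and its log2 change of 0.99 (-0.02 to 2.00) was not called. miR-141-5p had 3 and 5 counts in AGS and none in HGC27.

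The comparison of AGS with HGC27 under the same probe asks whether the lines differ in which arm was recovered more in the pull-down. The labels list no library of input RNA, so which arm the cells keep cannot be read from it. Each library enters one comparison of probes and one of lines, so the 4 comparisons are not independent. With the negative probe 7 of 44 stems were called, or 15.9%, against 15.5% of all stems with both arms. The minor arm was relatively higher in AGS for miR-361-3p (4.23, 3.04 to 5.42), miR-21-3p (2.78, 1.47 to 4.09), miR-30e-5p (2.60, 1.32 to 3.88) and miR-130b-3p. It was relatively lower in AGS for miR-200a-5p (-2.73, -3.39 to -2.07), miR-181a-3p (-2.30, -3.13 to -1.47) and miR-27b-5p, all on the log2 scale. miR-21-3p, the passenger of the abundant oncogenic miR-21-5p, had 5 counts against 1466 in HGC27 and 69 against 2941 in AGS with the negative probe, and it was blank in both positive probe libraries against 1962 and 4309. miR-181a-3p was 52.7% of its stem in HGC27 and 18.5% in AGS with the negative probe. Its partner miR-181a-5p has 2 loci, so the ratio of this stem is not that of 1 precursor. With the positive probe 11 of 37 stems were called, or 29.7%, against 35.3% of all stems, with 5 minor arms higher and 6 lower in AGS. Among the 36 low-numbered stems that could be compared in all 4 comparisons, 13 were called between the probes in HGC27, 13 between the probes in AGS, 6 between the lines with the negative and 11 between the lines with the positive probe. For the 13 stems with a value in all of them, the median absolute log2 change was 0.96 and 3.29 between the probes in HGC27 and AGS. Between the lines it was 0.87 and 1.12. These 2 sets were not taken over all stems with both arms, so no background share stands beside their numbers.

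**Figure D3:**
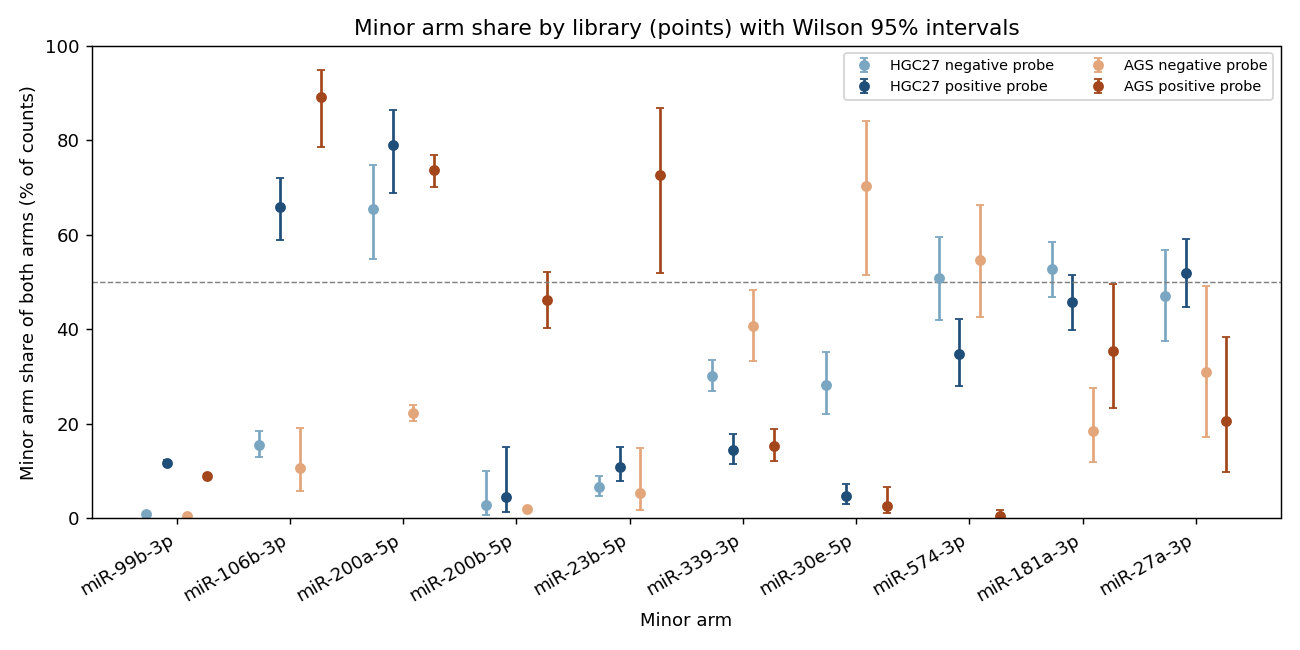
Share of the minor arm in the counts of both arms, in percent, in each of the 4 libraries for the members read most deeply or called most strongly, with Wilson 95% intervals as bars. miR-106b-3p (65.8% and 89.3%) and miR-200a-5p in AGS (73.7%) are above 50% with the positive probe, and miR-574-3p in AGS is at 54.7% with the negative and 0.480% with the positive probe.

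In 13 stems the minor arm was ahead of the major arm in at least 1 library with at least 20 counts of both arms, 17 cases in all. miR-200a-5p was ahead in 3 libraries, and miR-106b-3p and miR-574-3p in 2. For some the lead was within counting error, as for miR-27a-3p with 95 counts against 88 and a share of 51.9% (44.7 to 59.0) in the positive probe library of HGC27. The same held for miR-181a-3p at 52.7% (46.8 to 58.5) and miR-195-5p at 50.9% (41.6 to 60.2) in the negative probe library of HGC27. In others the interval was above 50%, as for miR-193b-5p with 28 counts against 12, 70.0% (54.6 to 81.9), in the negative probe library of HGC27 and for miR-23b-5p at 72.7% (51.8 to 86.8) in the positive probe library of AGS. miR-132-3p, an arm known from neurons, had 19 counts against 12 in the negative probe library of AGS and none with the positive probe in either line.

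Of 14 stems for which both arms are widely described as active, 8 had a member here, namely miR-9-3p, miR-21-3p, miR-30a-3p, miR-30e-5p, miR-126-5p, miR-145-5p, miR-455-3p and miR-574-3p. Their pooled share of the counts of both arms was 6.38% (5.77 to 7.05) with the negative and 2.43% (2.13 to 2.77) with the positive probe in HGC27, and 3.84% (3.23 to 4.56) and 0.201% (0.109 to 0.370) in AGS. miR-126-5p, whose hairpin lies in an intron of EGFL7, had 17 and 19 counts against 795 and 1322 in HGC27 and none in AGS. miR-455-3p, from an intron of the collagen gene COL27A1, had 12 counts against 538 and none against 97 in HGC27, and 2 against 79 and none against 20 in AGS. miR-145-5p had 4 and 5 counts in HGC27 and none in AGS.

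Other families are given by their pooled shares. The 5 members of miR-17-92 and its paralogs, which drive proliferation, were at 1.23% and 2.51% in HGC27 for the negative and positive probe. In AGS they were at 0.974% and 8.64%, and all 50 minor arm counts with the positive probe were those of miR-106b-3p. The 3 members of the miR-23/24/27 clusters were at 2.73% and 2.97% in HGC27 and at 1.63% and 6.76% in AGS. The 3 of the miR-181 family were at 25.9% and 27.8%, and at 9.01% and 24.3%. All 17 minor arm counts of this family with the positive probe in AGS were those of miR-181a-3p. The 4 members of the miR-30 family were at 6.86% and 9.30% in HGC27 and at 2.37% and 2.72% in AGS, with overlapping intervals between the probes in both lines. The 2 members with the miR-130b-3p seed, miR-130b-3p and miR-454-3p, were at 3.26% and 0.805% in HGC27 and at 13.9% and 0.599% in AGS. The miR-29 and miR-34 families and the imprinted DLK1-DIO3 cluster had no member.

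On the deposited score, minor arms as a class followed the background. This score gives tags scaled within each library, by a divisor whose basis is not known, and rounded to whole numbers. With a ratio of the score plus 1 of at least 2 taken as enriched with the positive probe and of at most 0.5 as depleted, 22 of the 74 members were enriched in HGC27, or 29.7%, against 33.6% of all names. Another 22 were depleted, or 29.7%, against 30.5% of all names. In AGS 15 were enriched, or 20.3%, against 21.5% of all names, and 11 were depleted, or 14.9%, against 12.3%. Of the enriched members 10 in each line had under 10 counts in each library of that line. With TMM scaling 21 were enriched and 13 depleted in HGC27, and 13 and 18 in AGS, so the balance of the directions depends on the scaling, unlike the arm ratio. The major arms of the same stems gave 12 enriched and 24 depleted in HGC27 and 19 and 22 in AGS. The probe ratios of the arms of a stem hardly moved together, with a Spearman correlation across stems of 0.08 over 40 stems in HGC27 and -0.26 over 13 stems in AGS, points that share the same libraries. Among called stems the score of the minor arm moved more than that of the major arm in 14 of 23 in HGC27 and in 5 of 15 in AGS. Rounding and the added 1 limit how far a low score can move. In AGS, for example, the score of miR-31-3p was 0 and 1 with the negative and positive probe. Neither these numbers nor the correlations can therefore tell which arm changed more. They were not taken over all stems with both arms.

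With the lines standing in for replicates, edgeR's quasi-likelihood test over all names that passed its filter included 28 of the 74 members and called none for the probe, against 7.01% of all names tested. 1 of them, miR-139-3p, had an unadjusted p under 0.05, with a log2 fold change of 2.74 ± 1.14 (SE) and an adjusted p of 0.106 by edgeR, and DESeq2 called none. miR-139-3p had 18 and 61 counts in HGC27 and 0 and 11 in AGS for the negative and positive probe, and its partner 26, 80, 0 and 0. For the line, with the probes standing in for replicates, 9 of the 28 were called by edgeR, against 29.9% of all names tested. DESeq2 called 4 of them, miR-200a-5p, miR-200b-5p, miR-340-3p and miR-9-3p, and edgeR without the filter on low counts called 0 of the 74, with 9 at an unadjusted p under 0.05. miR-200b-5p and miR-200a-5p were higher in AGS, at log2 fold changes of 8.27 ± 1.53 and 5.02 ± 1.29 (SE) with adjusted p of 8.19e-06 and 0.00103. The other 7, miR-9-3p, miR-708-3p, miR-146b-3p, miR-340-3p, miR-126-5p, miR-148b-5p and miR-214-3p, were lower in AGS. All but miR-340-3p and miR-214-3p had no count in either AGS library, so that their folds depend on the prior count and are not given. Members passed this filter through the libraries in which they were high, so the number called is no measure of minor arms as a class.

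The sequences of the arms differed in ways that the rule did not use. A 5′ uridine was present on 18 of the 74 minor and 40 of the 74 major arms, and a 5′ cytidine on 22 and 9. Adenosine was first on 25 minor and 22 major arms, and guanosine on 9 and 3. In 32 stems only the major arm began with U, and in 10 only the minor arm. The mean number of G and C among the first 4 bases was 2.07 on minor and 1.45 on major arms, with more on the minor arm in 39 stems, more on the major arm in 15 and as many in 20. Sequences were taken as the deposited table gives them, and 64 minor and 64 major arms were identical to the RefSeq sequence of the same name. Seeds were shared by miR-30a-3p and miR-30d-3p, by miR-130b-3p and miR-454-3p, by miR-200a-5p and miR-200b-5p, and by miR-365a-5p and miR-365b-5p.

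Base content was then set beside the probe changes, a look chosen after the values were seen. The share of A in the minor arm minus that in the major arm ran against the log2 change of the arm ratio with the positive probe, with a Spearman correlation across stems of -0.50 (Pearson -0.46) over 40 stems in HGC27 and of -0.85 (Pearson -0.85) over 13 stems in AGS. Among called stems the arm with more A was the relatively lower one with the positive probe in 18 of 23 in HGC27 and in 12 of 15 in AGS. It was the relatively higher one in 4 in HGC27, miR-92b, miR-143, miR-193b and miR-204, and in 3 in AGS, miR-21, miR-27b and miR-148a. In 1 stem in HGC27 the shares of A were equal. These numbers were not taken over all stems with both arms, so no background share stands beside them. miR-106b-5p and miR-99b-5p have more A than their partners and were relatively lower, and so was the A-rich miR-335-5p (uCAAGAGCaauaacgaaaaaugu). The miR-574 stem shows the same order, as miR-574-3p holds the sequence of CA repeats and miR-574-5p that of UG repeats printed above. Between the lines with the negative probe the Spearman correlation for A was 0.00 over 24 stems, and with the positive probe -0.36 over 16. For the other bases between the lines it was -0.14 and 0.08 for U, -0.02 and 0.61 for G, and -0.01 and -0.22 for C. With the positive probe G thus went with the line change more than A did. Between the probes it was 0.28 and 0.62 for U, 0.04 and 0.61 for G, and 0.15 and -0.21 for C, in HGC27 and AGS. For G and C together it was 0.41 and 0.43. Stems are not independent points, since they share the libraries, the shares of the 4 bases of an arm sum to a whole, and near-identical arms are among them. Why base content moved with the ratio was not tested.

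**Figure D4:**
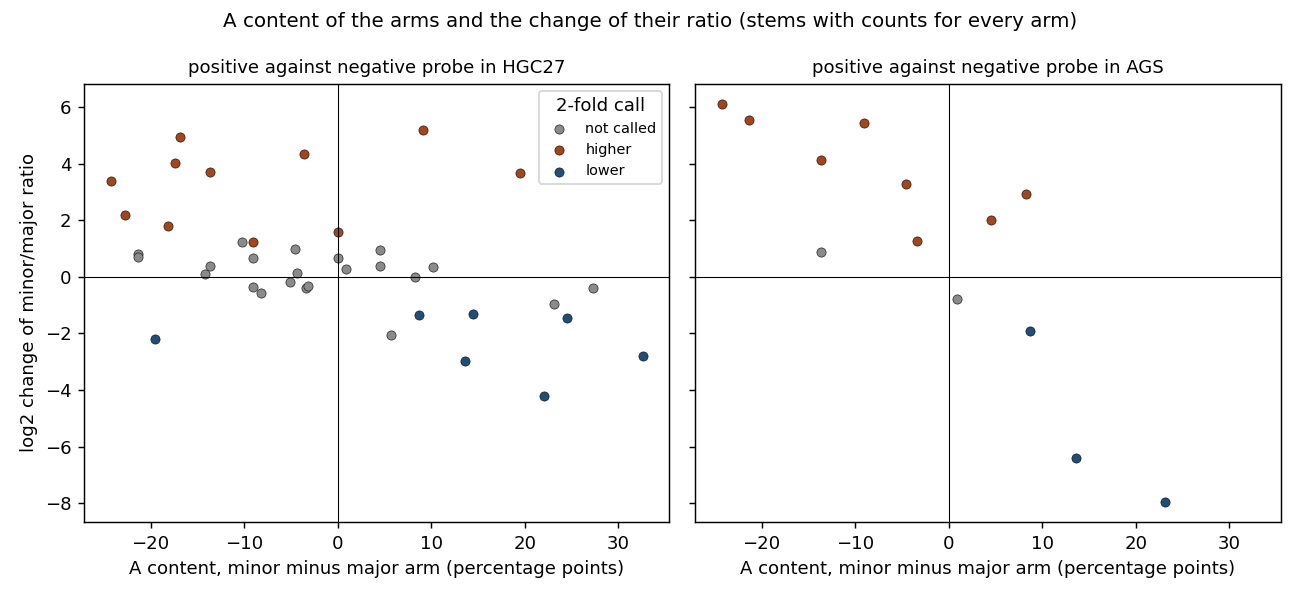
Share of A in the minor arm minus share of A in the major arm, in percentage points, against the log2 change of the arm ratio with the positive against the negative probe, 1 panel per line, each point a stem. The points run from the upper left to the lower right, more tightly over the 13 stems of AGS (Spearman -0.85) than over the 40 of HGC27 (-0.50).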

How the data were processed

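Small RNA was sequenced after RNA pull-down from 4 samples. The authors deposited raw counts per mature miRNA and precursor, and a score, described as tags scaled to aligned miRNA tags and rounded to whole numbers. The table totals were only 35.7% to 50.0% of the divisor that counts and scores imply, so what the score was scaled to is not known. The submitters' processing notes name cutadapt 1.9.3, Novoalign 3.02.12 and the build hg38. The treatment of reads that match several miRNAs is not given in the sources used here. The 901 rows were collapsed to 843 names (570 known, 273 predicted from reads), and blanks were taken as 0.

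Arm ratios were compared between libraries from counts with Wald 95% intervals on the log2 scale (NumPy 2.4.6, SciPy 1.17.1, pandas 2.3.3), with at least 20 counts of both arms per library and a blank minor arm set to 3 counts, which makes the change a bound. Intervals cover counting error only, since PCR reads are not independent molecules, and they compare libraries, not conditions. Score ratios added 1 to each score. edgeR 4.0.16 (R 4.3.3) fitted counts with TMM scaling, filterByExpr, line and probe, leaving 1 residual degree of freedom, with Benjamini-Hochberg adjustment at 0.05. DESeq2 1.42.0 was an alternative. The scripts were tested on simulated data. Host genes are from GENCODE 29 and coordinates and sequences from RefSeq on GRCh38.p14.

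The members, lists and tests were chosen with earlier results of these data known. Named members were the 10 with the most counts, the 5 called stems of largest change per comparison, up to 10 minor arms ahead of the major arm in a library, the 3 highest ratios and the 3 lowest among members with at least 10 counts, and stems with both arms described as active. Other members named, such as miR-193b-5p, miR-141-5p or miR-708-3p, were chosen after their values were seen. Alternatives varied the count minimum, the treatment of blanks, the fold threshold, the pseudocount, the scaling, locus-numbered stems and, added after seeing the data, predicted end variants, known miRNAs alone, and miR-99b, miR-148a and miR-125a left out.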

Additional observations from a re-analysis of the deposited data

How the results depend on the processing

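Of the summary results under the alternatives, 85 kept their direction and size within the limits set, 33 moved, 18 were weaker, 3 were stronger and none reversed. Each share was judged within its own library, and enriched and depleted members apart, so a turn in their order could not be labelled as reversed. The order of the probes in the pooled share did turn, in AGS without miR-99b and in both lines without all 3 stems, as given below. With at least 100 counts of both arms, 7 stems were called between the probes in AGS and 2 and 6 between the lines with the negative and positive probe, and with 2-fold alone 13 were called between the lines with the negative probe, where fewer stems or fewer conditions enter by construction. The pooled minor arm shares, in the order negative and positive probe in HGC27 and then in AGS, were 0.394%, 0.705%, 0.580% and 0.808% with locus-numbered stems added, 0.352%, 0.796%, 0.571% and 0.998% at a minimum of 100 counts, and 1.49%, 3.21%, 1.09% and 1.96% without the largest stem. Left out of every library, chosen after seeing the data, miR-99b gave 0.303%, 0.445%, 0.673% and 0.550%, miR-148a with miR-125a gave 1.60%, 3.54%, 1.21% and 2.41%, and all 3 gave 2.21%, 1.79%, 3.30% and 1.30%. The median share with the positive probe in HGC27 was 1.63% with locus-numbered stems and 1.75% at 100 counts, and 1.94% without miR-99b. With the negative probe in AGS it was 2.29% with blanks as 1, 0.168% with locus-numbered stems, 0 at 100 counts, 0.672% without the largest stem, 0.784% without miR-148a and miR-125a, and 0.788% without all 3. With a pseudocount of 10, a 4-fold threshold, or at least 10 counts, the enriched members numbered 5, 7 and 12 in HGC27 and 3, 4 and 5 in AGS, and the depleted 4, 5 and 13 in HGC27 and 1, 5 and 7 in AGS. TMM scaling gave 13 depleted members in HGC27 and 18 in AGS. The edgeR line effect was called for 19 members with library totals, which moved the median log2 fold change of all names tested from -0.63 to -3.17, for 0 without the filter, and for 4 with DESeq2. The cell line pairs the libraries in the edgeR fit; without this block edgeR also called 0 members for the probe. For miR-335-5p in AGS the change was -8.82 with 0.5 added to each count. The causes of these moves were not tested beyond what the alternatives remove.

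The labels carry no replicate numbers. Depth limits most members: 30 of 74 had under 10 counts, and a blank arm gives a bound, not a ratio.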
